A study of Mus musculus with 18 samples.

Results

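Potassium channel subunit genes were taken by their mouse symbols, which start with Kcn followed by letters and a number. Of 96 such rows in the deposited table, 3 antisense or overlapping RNAs were left out, namely Kcnd3os, Kcnmb4os1 and Kcnq1ot1. Of the other 93 genes, the 54 that reached at least 1 FPKM in at least 3 of the 18 libraries are described, among 22783 genes in the table. FPKM counts fragments scaled to transcript length and to the mapped fragments of the library, so levels can be compared between genes. Just inside the threshold were Kcnh3, at 1 FPKM in 3 libraries, and Kcns3, in 5. Just outside were Kcna4 and Kcnmb2, each in 2. The members comprised 12 of 17 voltage-gated pore subunits, 4 of 10 silent modifier subunits, 3 of 5 Kv7 genes, 3 of 8 genes of the EAG family and 6 of 12 calcium- or sodium-activated channel genes. They also held 10 of 15 inward rectifiers, 7 of 14 two-pore-domain leak channels and 9 of 12 accessory subunits.

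RNA came from whole cerebellum of FVB mice. All animals are labelled Cck-/-, lacking both copies of the gene of the neuropeptide cholecystokinin. The ATXN1[30Q]D776/Cck-/- animals, called transgenic here, also carried ataxin-1 with 30 glutamines and the aspartate for which D776 stands, and were set against Cck-/- animals without it. Ataxin-1 is the protein altered in spinocerebellar ataxia type 1. In the mouse line known by this name the transgene is driven by a Purkinje cell promoter, although the labels do not name it. Weeks 5, 12 and 28 of age were sampled, with 3 libraries for each genotype and age. Nothing in the labels ties a library to its own animal, so p-values measure only the spread between libraries.

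Potassium channels let potassium leave a cell and so end action potentials, set the pauses between them and hold the resting potential. Pore subunits form the channel, while silent modifier subunits and accessory subunits change its gating or its transport to the membrane. Purkinje cells, which carry the output of the cerebellar cortex, fire fast and regularly through Kv3, Kv1, Kv4, BK and SK channels, and inherited changes in several of these subunits cause ataxia. Bergmann glia and astrocytes take up potassium around them through inward rectifiers.

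Several libraries stood apart. In transgenic week 5 replicates 1 and 2 and transgenic week 28 replicate 3, the choroid plexus gene Ttr was at 43.1, 17.99 and 51.8 FPKM, against 610 to 2678 FPKM in the other 15. Transgenic week 5 replicate 1, week 12 replicate 2 and week 28 replicates 1 and 3 held both Xist and the Y-linked gene Ddx3y. Held means above 1 FPKM of Xist and above 0.1 FPKM of Ddx3y, since both were above 0 in all 18 libraries. Ddx3y read 0.643, 2.75, 27.2 and 0.280 FPKM in them, in that order. Cck-/- week 5 replicate 2, at 0.882 FPKM of Xist and 27.1 FPKM of Ddx3y, fell outside. In Cck-/- libraries Xist read 66.3, 0.882 and 0.432 FPKM at week 5 and 0.462, 74.6 and 87.6 FPKM at week 28. In transgenic libraries it read 99.6, 0.0806 and 61.2 FPKM at week 5 and 3.23, 116 and 91.4 FPKM at week 28. Sex, which these genes mark, was not in the fit, and its part was not tested. Cck, labelled as deleted, was above 0 in all 18 libraries and read 81.0, 112 and 102 FPKM in transgenic week 5 libraries, against 25.8, 17.1 and 19.5 FPKM in Cck-/- week 5 libraries. At week 5 the transgene and this difference in Cck cannot be told apart. Mouse Atxn1 read 4.91 to 6.501 FPKM in transgenic and 4.05 to 7.01 FPKM in Cck-/- libraries, and reads of the transgene itself were not separated from it. The absolute depth is unknown. From the smallest steps in very low genes, depth relative to the median library ran from 0.727 to 1.66, and all 6 week 28 libraries were above it. All 9 Purkinje cell markers and all 7 granule neuron markers were detected in every library.

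Among the most abundant members, Kcnc1, which encodes the Kv3.1 channel of fast-firing neurons, averaged 135 FPKM over the 18 libraries. Kcnk1, a two-pore-domain leak channel gene, averaged 120.1 FPKM. Kcnj10, the glial inward rectifier Kir4.1, averaged 69.1 FPKM, and Kcnip4, an accessory subunit of Kv4 channels, averaged 61.9 FPKM. The voltage-gated pore subunits made up 35.3% of the summed FPKM of the members and the accessory subunits 17.9%. Inward rectifiers gave 14.8%, leak channels 14.2%, calcium- or sodium-activated channels 9.59%, silent modifiers 3.77%, Kv7 genes 2.76% and the EAG family 1.73%. The summed level of the 54 members was 1285 ± 84.8 FPKM in transgenic and 1536 ± 161 FPKM in Cck-/- libraries at week 28 (SD, n = 3 each). The lowest of the 3 Cck-/- libraries, replicate 1, stood at 1350.2 FPKM, inside the transgenic range of 1199 to 1368 FPKM.

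At week 28, 12 members were lower in transgenic cerebellum and 3 were higher. Among the lower ones were the Kv1 pore gene Kcna6 with the Kv1 beta subunits Kcnab1 and Kcnab2, and the Kv4 partners Kcnip1 and Kcnip4. So were both BK genes, Kcnma1 and Kcnmb4. With them were the silent modifier Kcng4 and the glial rectifiers Kcnj10 and Kcnj16. Of other genes of Kv1, Kv3, Kv4 and SK channels, Kcna1, Kcnc1, Kcnd2, Kcnd3 and Kcnn2 were not called. The 3 higher were the leak channels Kcnk9 and Kcnk13 and the Kv7 gene Kcnq3. Calls are at an adjusted p under 0.05 in limma over the 13487 genes tested. The 15 called members were 27.8% of the 54, against 10.7% of all genes tested. Lower calls made up 22.2% of the members, against 6.13% of all genes, and higher calls 5.56%, against 4.54%. The median log2 fold change was -0.08 over the members and 0.00 over all genes. In bulk tissue, fewer cells of a type and less RNA per cell cannot be told apart. Without transgenic replicate 2, 8 members were called, 14.8% of them against 4.58% of all genes. Without the 3 libraries low in Ttr, 19 members were called, all 15 among them, or 35.2% against 13% of all genes. Without the 4 libraries holding Xist and Ddx3y, which leaves 1 transgenic library at week 28 that is assumed to vary like the other groups, 12 were called, 10 of them among the 15, or 22.2% against 7.45% of all genes.

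**Figure D1:**
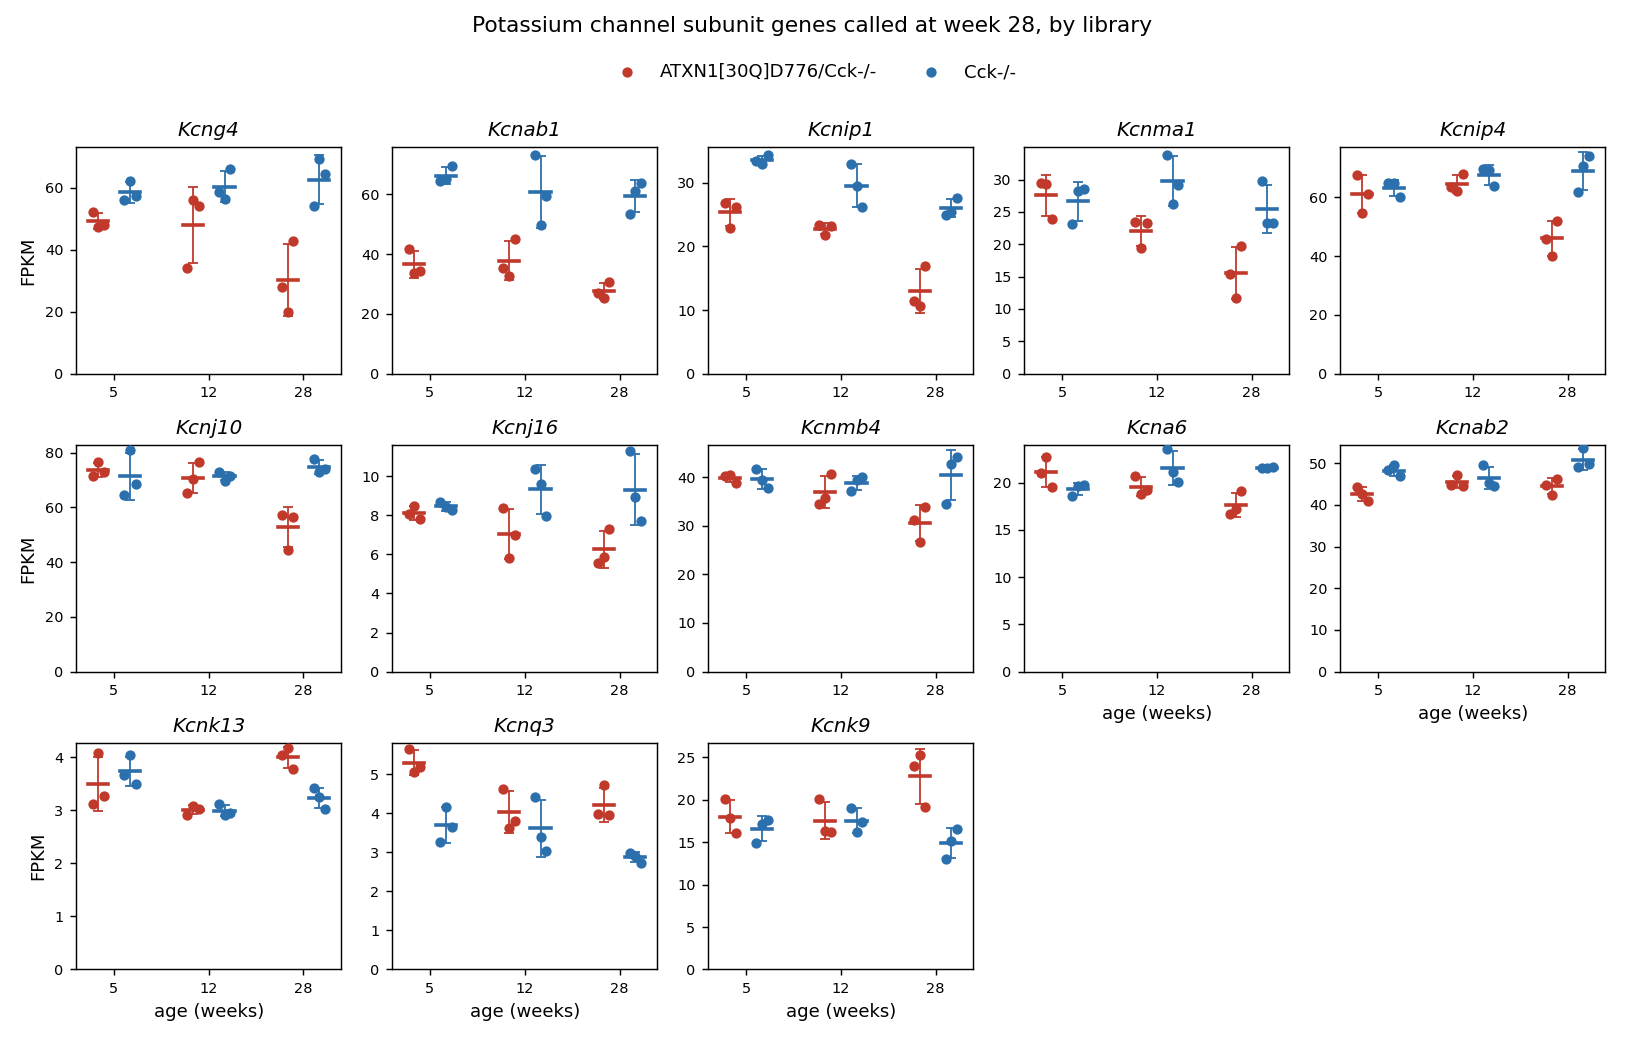
FPKM of 13 of the 15 members called at week 28, by age in weeks, with transgenic libraries in red left of Cck-/- libraries in blue. Each point is 1 library, the thick bar is the group mean and the whiskers span 1 SD. At week 28 the 2 groups did not overlap in any of the 13 panels, which the choice by the call at that age favours. The share of genes without overlap was not counted over all genes.

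The promoters of these genes are shown because ataxin-1 is known to bind the repressor Capicua, whose site can be searched for in them. RefSeq promoter windows of 300 bases on GRCm38.p6, 250 before and 50 from the gene start, were at hand for 39 of the 54 members, including 10 of the 12 lower at week 28. The octamers TGAATGAA, TGAATGAG, TGAATGGA, TGAATGGG, TCAATGAA, TCAATGAG, TCAATGGA and TCAATGGG, searched on both strands, are forms of the Capicua site. They were in 7.02% of 32851 windows of all genes, in 4 of 20 windows of the lower members and in 3 of 42 windows of the other members. The motif AGGTCA, the core of sites for ROR receptors and other nuclear receptors, was in 16.3% of all windows, in 2 of 20 windows of the lower members and in 2 of 42 of the others. Below, capitals mark a Capicua octamer, and each window is written 5′ to 3′ on the strand of its gene. The Kcnj10 window is chr1:172340960-172341259 on the plus strand, with the octamer starting 9 bases before the gene start. The Kcnip4 window is chr5:49285610-49285909 on the minus strand, with it starting 79 bases before. The Kcnip1 window shown is chr11:33843637-33843936 on the minus strand, at an inner start 149507 bases from the edge of the deposited locus. Its octamer starts at base 2 of the transcript. Other Kcnip1 windows, chr11:33993144-33993443 at that edge and chr11:33680633-33680932, hold none. Nor does the other Kcnip4 window, chr5:48599633-48599932. The Kcng4 window is chr8:119635631-119635930 on the minus strand and holds none.
Kcnj10: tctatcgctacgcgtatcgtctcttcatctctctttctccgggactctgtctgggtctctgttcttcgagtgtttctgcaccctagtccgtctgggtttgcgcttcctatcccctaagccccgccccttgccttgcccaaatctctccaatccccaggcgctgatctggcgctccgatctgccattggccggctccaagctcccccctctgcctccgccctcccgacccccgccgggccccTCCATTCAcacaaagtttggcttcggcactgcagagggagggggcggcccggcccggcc
Kcnip4: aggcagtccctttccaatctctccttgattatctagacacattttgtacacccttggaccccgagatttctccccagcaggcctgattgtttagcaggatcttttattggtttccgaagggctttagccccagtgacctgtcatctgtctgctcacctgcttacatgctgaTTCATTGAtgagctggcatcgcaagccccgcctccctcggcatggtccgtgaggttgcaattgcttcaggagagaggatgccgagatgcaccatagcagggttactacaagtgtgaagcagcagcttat
Kcnip1: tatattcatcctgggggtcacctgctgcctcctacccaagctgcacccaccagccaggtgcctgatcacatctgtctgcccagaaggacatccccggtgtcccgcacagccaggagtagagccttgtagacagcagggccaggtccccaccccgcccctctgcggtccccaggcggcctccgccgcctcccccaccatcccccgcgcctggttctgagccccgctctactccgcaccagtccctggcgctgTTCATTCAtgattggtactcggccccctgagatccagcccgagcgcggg
Kcng4: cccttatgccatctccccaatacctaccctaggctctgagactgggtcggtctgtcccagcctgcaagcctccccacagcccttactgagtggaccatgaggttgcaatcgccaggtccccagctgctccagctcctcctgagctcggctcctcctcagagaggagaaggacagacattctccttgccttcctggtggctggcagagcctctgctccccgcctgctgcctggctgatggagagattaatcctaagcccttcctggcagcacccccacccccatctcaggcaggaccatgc
A match describes the letters only and shows no binding.

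Among voltage-gated pore subunits, Kcna6 was lower at week 28. Kcna6, which encodes Kv1.6, read 16.7, 17.2 and 19.1 FPKM in transgenic libraries, against 21.6, 21.5 and 21.7 FPKM in Cck-/- libraries. That is a small difference beside very even Cck-/- values, at a log2 fold change of -0.28 ± 0.07 (SE; adjusted p = 0.0143). The call on Kcna6 was lost without transgenic replicate 1 (adjusted p = 0.0773) or 2 (0.0704), and without the libraries holding Xist and Ddx3y (0.0704).

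Of the 12 voltage-gated pore subunits, 10 were not called at week 28, and their log2 fold changes ran from -0.20 to 0.43. Kcnc1 read 129, 115 and 128 FPKM in transgenic libraries, against 104, 154 and 157 FPKM in Cck-/- libraries, with overlapping groups. Kcna1, the gene of episodic ataxia type 1, read 54.5, 50.2 and 54.7 FPKM, against 40.3, 47.2 and 48.1 FPKM. Its groups did not overlap, yet the fold change of 0.23 ± 0.08 missed the threshold (adjusted p = 0.0621). Kcnd3, which encodes Kv4.3 and is altered in an inherited ataxia, read 25.3, 23.4 and 28.3 FPKM, against 29.0, 27.6 and 25.8 FPKM, and its groups overlapped. Kcnd3 overlaps the antisense gene Kcnd3os, which was at 0.329 to 0.718 FPKM. Cck-/- replicate 1 was the lowest of its group in 31 of the 54 members, Kcnc1 among them, and without it 22 members were called at week 28, or 40.7% against 14.5% of all genes.

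The silent modifier Kcng4 had the largest log2 fold change in size among the 12 lower members. It encodes Kv6.4, which forms no channel alone and changes the gating of Kv2 channels. At week 28 it read 27.9, 19.8 and 42.9 FPKM in transgenic libraries, against 54.05, 69.4 and 64.5 FPKM in Cck-/- libraries (log2 fold change -1.09 ± 0.21, adjusted p = 0.00395). The groups did not overlap, with transgenic replicate 3 nearest to the Cck-/- values. Of the other silent modifiers, Kcns1 read 2.64, 3.14 and 2.09 FPKM, against 1.98, 1.56 and 1.77 FPKM. Its fold change of 0.38 ± 0.13 missed the threshold (adjusted p = 0.0728), although the groups did not overlap.

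Kv7 channels carry the slow M current, and their gene Kcnq3 was higher at week 28. Kcnq3 read 3.99, 4.73 and 3.96 FPKM in transgenic libraries, against 2.99, 2.92 and 2.74 FPKM in Cck-/- libraries, and the groups did not overlap (0.43 ± 0.11, adjusted p = 0.0190). The call on Kcnq3 was lost without transgenic replicate 2 (0.108), Cck-/- replicate 2 (0.0570) or Cck-/- replicate 3 (0.0634), and without the libraries holding Xist and Ddx3y (0.0527).

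Both BK genes fell at week 28. BK channels open with calcium and voltage together and speed the end of the Purkinje cell spike. The pore gene Kcnma1 (mm10 chromosome 14, 23298694 to 24004205) read 15.3, 11.7 and 19.7 FPKM in transgenic libraries, against 29.7, 23.3 and 23.3 FPKM in Cck-/- libraries. Its fold change was -0.69 ± 0.16 (adjusted p = 0.0105), and -0.51 with an adjusted p of 0.0650 without transgenic replicate 2, the lowest library. Kcnmb4, the neuronal beta subunit, read 31.3, 26.6 and 33.8 FPKM, against 34.5, 42.7 and 44.2 FPKM (-0.39 ± 0.09, adjusted p = 0.0129). The groups nearly touched, and the call was lost without transgenic replicate 2 (0.0822), Cck-/- replicate 2 (0.0647) or Cck-/- replicate 3 (0.0600). Kcnmb4 overlaps the RNA Kcnmb4os1, which read 8.31, 7.75 and 9.11 FPKM in transgenic and 9.27, 11.4 and 11.3 FPKM in Cck-/- week 28 libraries. Since no strand setting is stated, reads of the 2 cannot be told apart. The SK gene Kcnn2 read 21.8, 27.3 and 23.5 FPKM, against 19.9, 22.6 and 24.4 FPKM, and Kcnt1, of the sodium-activated Slack channel, 69.2, 66.9 and 65.6 FPKM, against 50.5, 70.3 and 74.1 FPKM. Neither was called, and their groups overlapped.

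The EAG family, whose ERG and EAG channels slow repeated firing, held no call at week 28. Kcnh2 read 16.1, 14.3 and 16.6 FPKM in transgenic libraries, against 14.2, 16.4 and 16.3 FPKM in Cck-/- libraries, and Kcnh1 10.1, 7.08 and 9.04 FPKM, against 8.55, 8.46 and 10.6 FPKM. Both pairs of groups overlapped.

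Accessory subunits held 4 of the 12 lower calls. Kcnab1, a beta subunit that binds Kv1 channels and speeds their inactivation, read 27.1, 25.4 and 30.7 FPKM in transgenic libraries, against 53.5, 61.3 and 63.9 FPKM in Cck-/- libraries. The groups were far apart (-1.08 ± 0.14, adjusted p = 1.08e-04), with transgenic libraries at 46.6% of the Cck-/- mean. Its relative Kcnab2 differed far less, at 44.8, 42.4 and 46.2 FPKM, against 49.1, 53.7 and 49.8 FPKM (-0.19 ± 0.05, adjusted p = 0.0269). The call on Kcnab2 was lost without transgenic replicate 1 (0.0760) or 2 (0.141) or Cck-/- replicate 2 (0.131), and without the libraries holding Xist and Ddx3y (0.0508).

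Kcnip1 and Kcnip4 encode calcium-binding KChIP subunits that carry Kv4 channels to the membrane. Kcnip1 read 11.5, 10.6 and 16.9 FPKM in transgenic libraries, against 25.0, 25.4 and 27.7 FPKM in Cck-/- libraries (-0.97 ± 0.12, adjusted p = 1.07e-04). Its locus holds Kcnmb1, which was under 1 FPKM. Kcnip4 read 45.8, 40.2 and 52.0 FPKM, against 61.8, 70.7 and 74.1 FPKM (-0.58 ± 0.09, adjusted p = 7.65e-04). Neither pair of groups overlapped. Kcnip3, not called, read 30.1, 27.1 and 35.4 FPKM, against 34.7, 38.6 and 35.4 FPKM. The Kv4 pore gene Kcnd2, the partner of these subunits, averaged 61.7 FPKM over the 18 libraries and was not called at any age.

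The glial inward rectifiers fell at week 28. Kcnj10 (mm10 chromosome 1, 172341210 to 172374085), the Kir4.1 gene altered in EAST syndrome with ataxia, read 57.2, 44.3 and 56.6 FPKM in transgenic libraries, against 77.7, 73.0 and 73.8 FPKM in Cck-/- libraries. The groups were clearly apart (-0.51 ± 0.09, adjusted p = 0.00221). Kcnj16, whose Kir5.1 subunit pairs with Kir4.1, read 5.57, 5.88 and 7.31 FPKM, against 11.3, 8.96 and 7.71 FPKM (-0.50 ± 0.13, adjusted p = 0.0239). The groups nearly touched, and the call was lost without transgenic replicate 1 (0.111) or 2 (0.104), without Cck-/- replicate 1 (0.0697) or 2 (0.0612), and without the libraries holding Xist and Ddx3y (0.0713). Of the 7 markers of Bergmann glia and astrocytes, 3 were higher and 2 lower at week 28, with the water channel gene Aqp4 at 1.04 and the Bergmann glia glutamate transporter gene Slc1a3 at -0.72. Their summed level was 976 to 1138 FPKM in transgenic and 779 to 978 FPKM in Cck-/- libraries, and their part in these results was not tested. The neuronal rectifier Kcnj9, a GIRK gene coupled to GABA-B receptors, read 32.5, 32.8 and 39.1 FPKM, against 34.0, 48.8 and 47.4 FPKM. It was not called, and its groups overlapped.

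The leak channels held 2 of the 3 higher calls. Kcnk9, the acid-sensitive TASK-3 gene of granule neurons, read 24.0, 25.3 and 19.1 FPKM in transgenic libraries, against 12.96, 15.2 and 16.5 FPKM in Cck-/- libraries (0.58 ± 0.12, adjusted p = 0.00501). The groups did not overlap. Of 7 granule neuron markers none was called, and their mean log2 level was 7.38 to 7.45 in transgenic and 7.04 to 7.60 in Cck-/- libraries. Kcnk13, which encodes the THIK-1 channel of microglia, read 4.04, 4.17 and 3.78 FPKM, against 3.42, 3.24 and 3.03 FPKM (0.24 ± 0.07, adjusted p = 0.0457). The call on Kcnk13 was lost without transgenic replicate 1 (0.137) or 2 (0.176) or Cck-/- replicate 2 (0.117) or 3 (0.141), and without the libraries holding Xist and Ddx3y (0.116). Of 7 microglia markers 4 were higher, and their summed level was 88.3 to 131 FPKM in transgenic and 53.8 to 79.4 FPKM in Cck-/- libraries. Whether that level has a part in the Kcnk13 difference was not tested. Kcnk1, the most abundant leak channel gene, read 92.5, 84.9 and 92.4 FPKM, against 86.0, 106 and 101 FPKM, and Kcnk3, of the TASK-1 channel, 24.6, 24.9 and 25.6 FPKM, against 19.0, 31.4 and 30.7 FPKM. Neither was called, and their groups overlapped.

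Among the 12 lower members, transgenic week 28 replicate 3 was the highest of its group in 10 and replicate 2 the lowest in 9. Over all 54 members, replicate 3 was the highest in 27 and replicate 2 the lowest in 23. Among the 3 higher members, replicate 2 was the highest and replicate 3 the lowest in all 3. All 9 Purkinje cell markers were lower at week 28, and their summed level was 1431, 1217 and 2203 FPKM in transgenic replicates 1, 2 and 3, against 3171 to 3429 FPKM in Cck-/- libraries. The marker Pcp2 alone read 293, 232 and 490.2 FPKM, against 714, 753 and 686 FPKM. Replicate 3 is also one of the libraries low in Ttr. The part of the Purkinje cell level in the channel results was not tested.

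The 12 members lower at week 28 had fold changes below 0 in all 12 at week 12 and in 8 at week 5. The same count was not made over all genes lower at week 28, so it is not read as particular to these members. Their choice by the week 28 call favours a larger size at that age, and the test of the difference called 3 of them against week 5 and none against week 12. The summed level of the 9 Purkinje cell markers was 2550 to 2806 FPKM in transgenic and 3301 to 3487 FPKM in Cck-/- libraries at week 12, where 2 of them were lower, and its part was not tested. At week 12 Kcnab1 was the 1 member called, 1.85% of the 54, against 1.36% of all genes tested. It read 35.3, 32.8 and 45.2 FPKM in transgenic libraries, against 73.3, 49.6 and 59.5 FPKM in Cck-/- libraries (-0.67 ± 0.14, adjusted p = 0.0219). The groups did not overlap, but the call was lost without transgenic replicate 1 (0.0752) or 2 (0.155) or Cck-/- replicate 1 (0.115) or 3 (0.0591), and without the libraries holding Xist and Ddx3y (0.124). Lower calls made up 1.08% and higher calls 0.282% of all genes. At an unadjusted p under 0.05, 9 members and 1623 of all genes passed.

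At week 5, 6 members were called, 11.1% of the 54, against 7.67% of all genes tested. Of the 6, 3 were also called at week 28, namely Kcnab1, Kcnab2 and Kcnq3, and of all genes called at week 5, 27.0% were. In direction, 3 were lower, against 4.37% of all genes, and 3 higher, against 3.3%. Kcnab1 read 41.8, 33.6 and 34.5 FPKM in transgenic libraries, against 64.5, 65.0 and 69.4 FPKM in Cck-/- libraries (-0.84 ± 0.14, adjusted p = 0.00157). Its call held without any 1 library, and it was the 1 member called at all 3 ages. Kcnab2 read 44.4, 42.7 and 40.9 FPKM, against 48.4, 49.5 and 46.9 FPKM (-0.17 ± 0.05, adjusted p = 0.0475). Kcnh3, an ELK channel gene of the EAG family, read 0.787, 0.769 and 0.544 FPKM, against 1.68, 2.76 and 3.03 FPKM (-1.02 ± 0.15, adjusted p = 9.83e-04). Kcnh3 passed the filter on low values through the 3 Cck-/- week 5 libraries alone, so it had to differ there, and without it 5 of 53 members, 9.43%, were called. Its locus overlaps Mcrs1, and reads of the 2 may not be told apart.

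Kcnq3, Kcnn2 and Kcnh2 were higher at week 5. Kcnq3 read 5.66, 5.05 and 5.20 FPKM in transgenic libraries, against 3.25, 4.17 and 3.66 FPKM in Cck-/- libraries (0.43 ± 0.11, adjusted p = 0.0238). Kcnn2, whose SK2 channel sets the pauses of Purkinje cell firing, read 22.2, 20.4 and 22.8 FPKM, against 17.4, 16.4 and 16.0 FPKM (0.37 ± 0.09, adjusted p = 0.0256). Kcnh2, the ERG1 gene, read 14.4, 16.4 and 14.3 FPKM, against 11.9, 13.5 and 12.1 FPKM (0.25 ± 0.07, adjusted p = 0.0453). None of these groups overlapped, yet Kcnq3, Kcnn2, Kcnh2 and Kcnab2 each lost their call without any of 5 of the 6 week 5 libraries, at adjusted p up to 0.108, 0.0952, 0.200 and 0.162. Without the libraries low in Ttr, transgenic replicate 3 is alone at week 5, and week 5 calls from that fit are not given. Without those holding Xist and Ddx3y, 3 members were called, 5.56% of the 54 against 5.62% of all genes. Kcnh3, which had to differ at week 5, is among the 54. Of the 7 oligodendrocyte and myelin markers 5 were lower at week 5, with a summed level of 3978 to 4092 FPKM in transgenic and 4990 to 6034 FPKM in Cck-/- libraries, and 4 of 7 inhibitory interneuron markers were higher. The Purkinje cell markers summed to 2617 to 2943 FPKM in transgenic and 3137 to 3362 FPKM in Cck-/- libraries, with 1 of 9 lower, Car8 at -1.07 (adjusted p = 0.00255). The part of these levels was not tested.

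**Figure D2:**
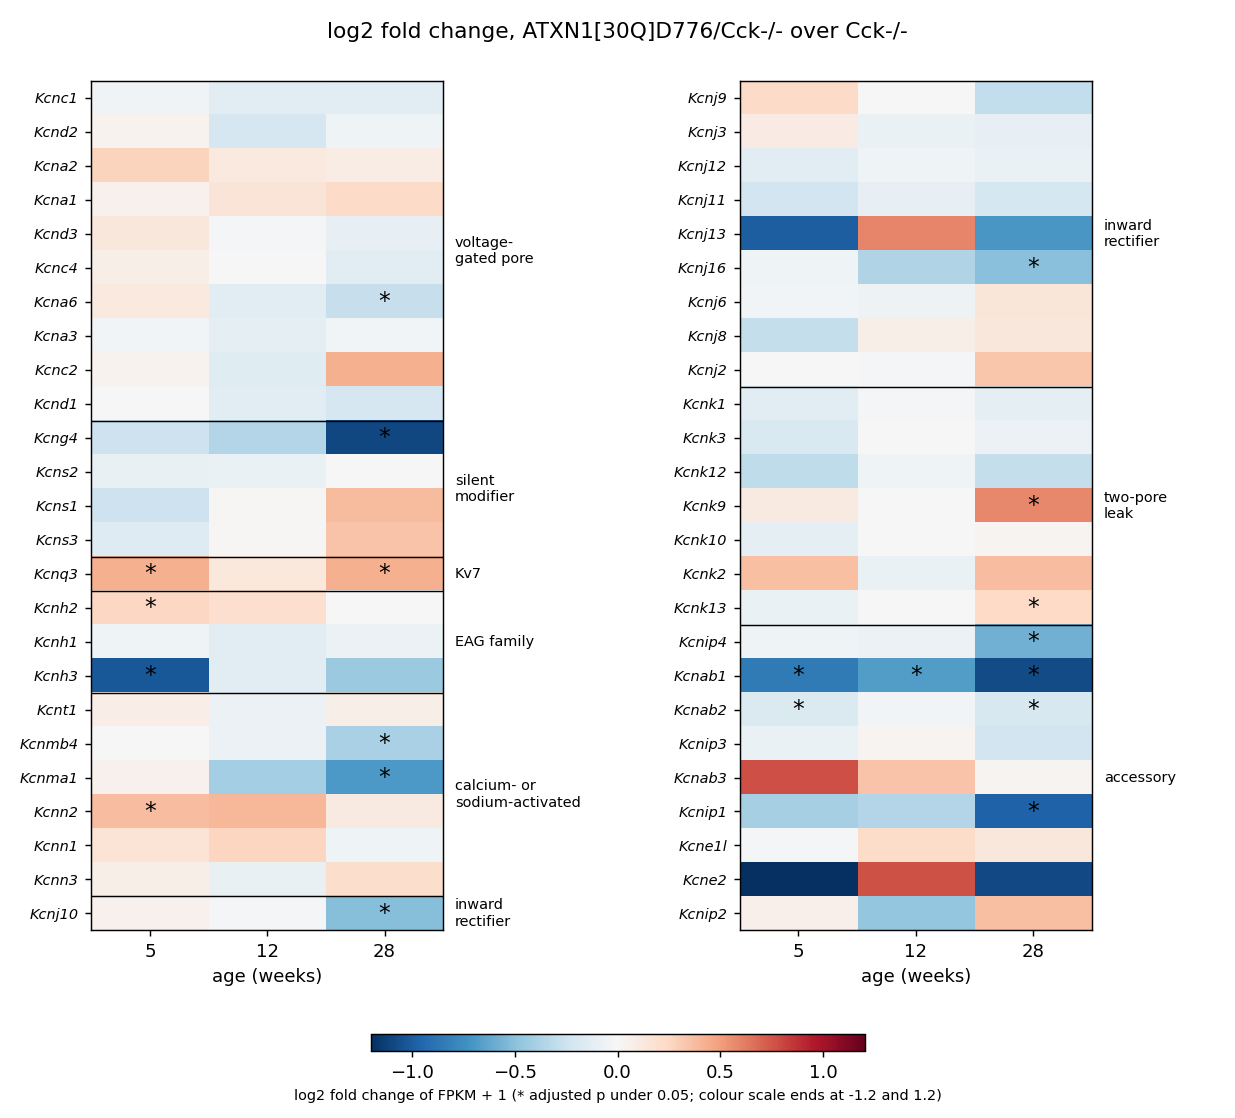
Colour shows the log2 fold change of FPKM + 1, transgenic over Cck-/-, of 50 of the 54 members at weeks 5, 12 and 28, ordered by role and mean level; a star marks an adjusted p under 0.05. Kcnab1 carries a star at all 3 ages and 13 of those shown carry one at week 28, while Kcne2 at week 5, at -1.74, lies past the end of the colour scale.

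The genotype effect differed between week 28 and week 5 for 3 members, 5.56% of the 54, against 3.65% of all genes tested. All 3 differences were below 0, as were 1.92% over all genes. These were Kcnj10, Kcnip4 and Kcna6. Their differences between the 2 effects on the log2 scale were -0.56 ± 0.13 (adjusted p = 0.0326), -0.52 ± 0.13 (0.0369) and -0.40 ± 0.09 (0.0335). At week 5 the fold changes of the 3 were 0.05, -0.05 and 0.12. At that age Kcnj10 read 71.5, 76.5 and 72.8 FPKM in transgenic libraries, against 64.4, 80.9 and 68.6 FPKM in Cck-/- libraries. Kcnip4 read 67.7, 54.8 and 61.1 FPKM, against 64.9, 64.8 and 60.1 FPKM, and Kcna6 21.1, 22.7 and 19.5 FPKM, against 18.6, 19.7 and 19.8 FPKM. In all 3 genes the week 5 groups overlapped. The calls were lost without any of 8 of the 12 libraries for Kcnj10 and 9 of the 12 for Kcnip4 and Kcna6, at adjusted p up to 0.0808, 0.0963 and 0.0934. Fitting the compared groups alone left none of them called, at 0.0678, 0.0821 and 0.0514. Without transgenic week 28 replicate 3, 10 members were called, 18.5% of them against 7.84% of all genes. Leaving out the libraries that hold Xist and Ddx3y keeps 1 transgenic library at week 28. Calls on this difference from that fit are not given. Of the 9 Purkinje cell markers 4 also differed below 0, and of the 7 oligodendrocyte and myelin markers 6 differed above 0, and their part was not tested. For Kcnab1 the effect at week 28 exceeded that at week 5 by -0.23 ± 0.19, which was not called (adjusted p = 0.542).

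**Figure D3:**
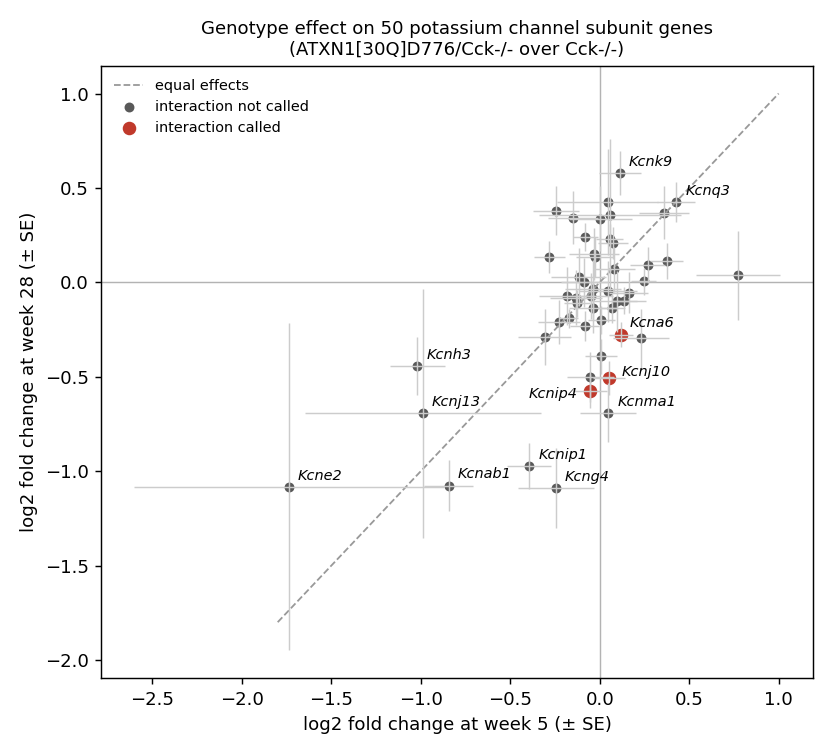
Each point is 1 of 50 members, with its log2 fold change (transgenic over Cck-/-) at week 5 on the x axis and at week 28 on the y axis, and bars of 1 SE. Kcnj10, Kcnip4 and Kcna6, in red, lie near 0 at week 5 and between -0.28 and -0.58 at week 28, and Kcnab1 lies low at both ages.

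Against week 12, no member and none of the 13487 genes differed at week 28 in limma at an adjusted p under 0.05. At an unadjusted p under 0.05, 12 members and 1365 of all genes passed. The 5 members with the smallest p were Kcnip4 at -0.51 ± 0.13, Kcnj10 at -0.49 ± 0.13, Kcnip1 at -0.62 ± 0.17, Kcnk9 at 0.58 ± 0.17 and Kcnn3 at 0.29 ± 0.12. Their adjusted p ran from 0.394 to 0.453. The count was 23 with library weights, 42.6% of the members against 17.4% of all genes. It was 3 without transgenic week 28 replicate 3, 5.56% against 1.1% of all genes. Without the libraries low in Ttr it was 2, 3.7% against 0.756%. The fit without those holding Xist and Ddx3y has 1 transgenic week 28 library, and its count is not given.

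From week 5 to week 28, 25 members changed in transgenic cerebellum, 6 higher and 19 lower, or 46.3% of the 54 against 36.9% of all genes tested. In Cck-/- cerebellum 18 changed, 7 higher and 11 lower, or 33.3% against 33.7% of all genes. The lower calls shared 8 genes, which is 42.1% of the 19 in transgenic and 72.7% of the 11 in Cck-/- cerebellum, against 53.1% and 59.6% over all genes. They were Kcnh1, Kcnh3, Kcnip1, Kcnip3, Kcnj12, Kcnj6, Kcnk1 and Kcnk12. Kcnh3 passed the filter through Cck-/- week 5 alone, which favours its fall in Cck-/- cerebellum, and 7 are shared without it. The higher calls shared 3 genes, among them Kcnc4 and Kcnk2. Of the 8 lower, Kcnh1 and Kcnh3 lost their call in transgenic cerebellum without any of 2 and 4 of its 6 libraries (adjusted p up to 0.121 and 0.118). In Cck-/- cerebellum Kcnh1, Kcnip1 and Kcnip3 lost it without any of 4, 5 and 3 of its 6 libraries (up to 0.102, 0.0902 and 0.0766). Without the libraries low in Ttr, 1 transgenic library is left at week 5. Without those holding Xist and Ddx3y, 1 is left at week 28. Age calls in transgenic cerebellum from these fits are not given, so whether the calls above hold in them was not settled. With age, 8 of 9 Purkinje cell, 6 of 7 myelin and 4 of 7 granule neuron markers were lower and 7 of 7 microglia markers higher in transgenic cerebellum. In Cck-/- cerebellum 7 of 7 myelin and 5 of 7 granule neuron markers were lower and 5 of 7 microglia markers higher, and the part of these levels was not tested. All week 28 libraries were deeper than the median and the part of depth was not tested.

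Kcnk1 showed a like fall with age in both genotypes. In transgenic libraries it read 92.5, 84.9 and 92.4 FPKM at week 28, against 129.7, 125 and 143 FPKM at week 5 (-0.55 ± 0.07, adjusted p = 8.03e-05). In Cck-/- libraries it read 86.0, 106 and 101 FPKM at week 28, against 149.6, 142 and 142 FPKM at week 5 (-0.57 ± 0.07, adjusted p = 4.21e-05). Weeks 28 and 5 did not overlap in either genotype. Kcnj6, a GIRK gene, fell by 0.57 on the log2 scale in transgenic and by 0.75 in Cck-/- cerebellum. Kcnj12, of the Kir2 family, fell by 0.55 and by 0.60, and Kcnk12, a silent relative of THIK-1, by 0.57 and by 0.59. In transgenic cerebellum, the fits without the libraries low in Ttr or those holding Xist and Ddx3y have 1 library at week 5 or week 28. They cannot decide whether the calls on Kcnj6, Kcnj12 and Kcnk12 hold. Kcnh3 fell by 0.44 and by 1.02, the second from the level through which it passed the filter.

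Kcnma1 and Kcng4, both lower at week 28, fell with age in transgenic cerebellum and were not called with age in Cck-/- cerebellum. Kcnma1 read 15.3, 11.7 and 19.7 FPKM in transgenic libraries at week 28, against 29.4, 29.3 and 23.9 FPKM at week 5 (-0.80 ± 0.16, adjusted p = 0.00127). In Cck-/- libraries its change was -0.07. Kcng4 fell by 0.75 in transgenic cerebellum (adjusted p = 0.0125, and 0.0714 without transgenic week 28 replicate 2), against a change of 0.09 in Cck-/- cerebellum. These differences between genotypes were tested as the change of the genotype effect and not called, at adjusted p of 0.0796 for Kcnma1 and 0.135 for Kcng4. Kcnip1 fell in both genotypes, by 0.94 in transgenic and by 0.36 in Cck-/- cerebellum (adjusted p of the difference 0.0790).

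Of the members called with age in transgenic cerebellum, Kcns1 and Kcns3 had the largest log2 rises. Kcns1 read 2.64, 3.14 and 2.09 FPKM at week 28 in transgenic libraries, against 0.854, 1.09 and 1.198 FPKM at week 5 (0.82 ± 0.13, adjusted p = 2.87e-04). Kcns3 read 1.64, 1.53 and 0.944 FPKM at week 28, against 0.510, 0.518 and 0.646 FPKM at week 5 (0.59 ± 0.14, adjusted p = 0.00450). Both encode silent partners of Kv2 channels. Kcnk2, of the mechanosensitive TREK-1 channel, rose by 0.41 in transgenic and by 0.40 in Cck-/- cerebellum, and Kcnk9 by 0.32 in transgenic cerebellum. In transgenic cerebellum the calls on Kcnk2 and Kcnk9 were lost without any of 5 and 4 of the 6 transgenic libraries, at adjusted p up to 0.137 and 0.173. In Cck-/- cerebellum the call on Kcnk2 was lost without any of 4 of the 6 libraries, at adjusted p up to 0.183.

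In Cck-/- cerebellum Kcnc4, of the fast Kv3.4 channel, rose by 0.42, against 0.21 in transgenic cerebellum. There the call was lost without any of 4 of the 6 libraries (adjusted p up to 0.201). The transgenic value turned to -0.016 without the libraries holding Xist and Ddx3y, with 1 transgenic library left at week 28. Kcnab3, a Kv1 beta subunit, read 23.8, 35.8 and 33.7 FPKM in Cck-/- libraries at week 28, against 16.8, 23.8 and 16.2 FPKM at week 5. Its rise of 0.69 ± 0.24 (adjusted p = 0.0358) came with groups that overlapped slightly, and the call was lost without any of 4 of the 6 libraries, at adjusted p up to 0.118. Kcnn2 rose by 0.40 and Kcnh2 by 0.30, both from week 5 levels below those of transgenic libraries, and Kcnd3 rose by 0.26. Kcna1 fell by 0.33, at 40.3, 47.2 and 48.1 FPKM at week 28, against 55.6, 58.4 and 56.6 FPKM at week 5, and Kcnk3 fell by 0.46, a call lost without any of 4 of the 6 libraries (up to 0.150).

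**Figure D4:**
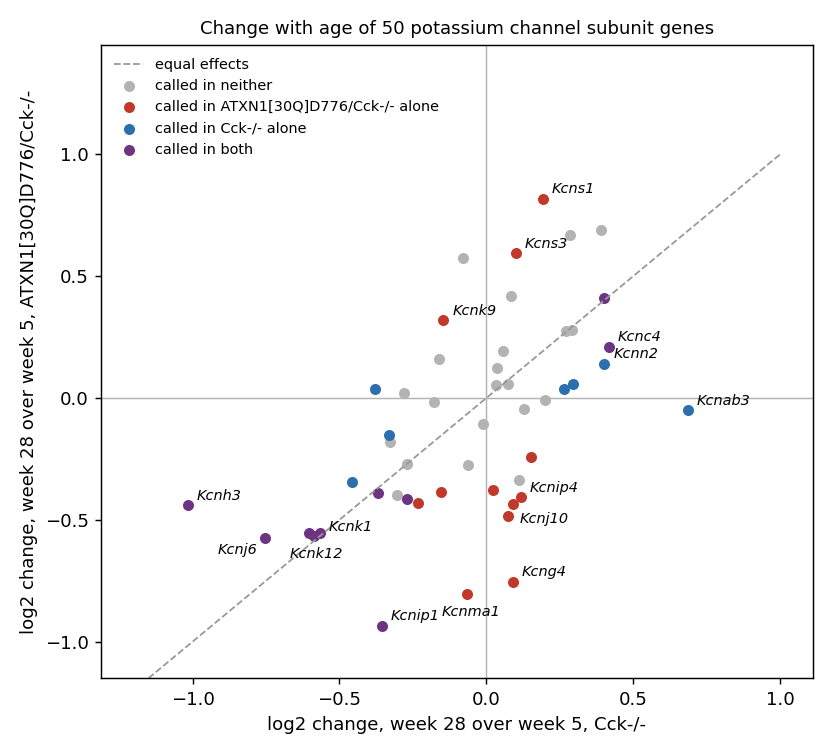
Each point is 1 of 50 members, with its log2 change from week 5 to week 28 in transgenic libraries on the y axis and in Cck-/- libraries on the x axis, coloured by where it was called. Kcnk1, Kcnk12 and Kcnj6 lie near the dashed line of equal change, and Kcnma1 and Kcng4 lie below it near 0 on the x axis.

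Kcne2 and Kcnj13 belong to the choroid plexus epithelium, where their channels lie in the membrane that faces the ventricle. Kcne2 read 0.275, 0.126 and 17.4 FPKM in transgenic libraries at week 5 and 8.45, 6.16 and 0.295 FPKM at week 28. In Cck-/- libraries it read 8.86, 6.87 and 11.6 FPKM at week 5 and 6.81, 6.28 and 13.6 FPKM at week 28. Its 3 lowest libraries were the 3 lowest in Ttr. Kcnj13 was lowest in the same 3, at 1.47, 2.26 and 2.99 FPKM, against 5.61 to 22.6 FPKM elsewhere, and its deposited locus overlaps Gigyf2. Neither was called at any age, with fold changes at week 5 of -1.74 ± 0.87 and -0.99 ± 0.66. In these 3 libraries the 6 choroid plexus markers summed to as little as 24.6 FPKM, and none of the markers was at 0.

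**Figure D5:**
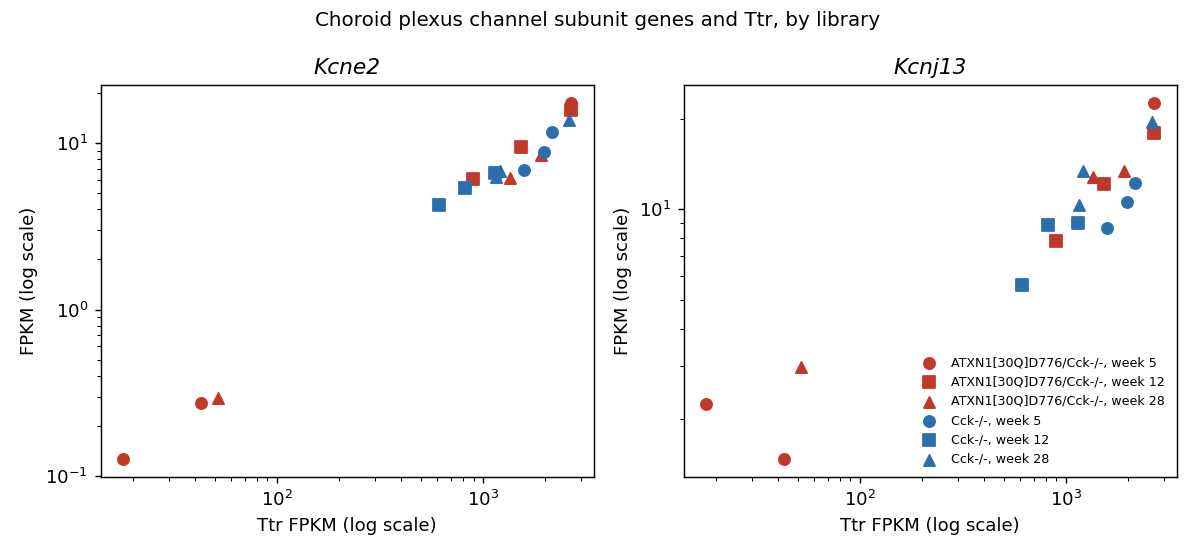
FPKM of Kcne2 (left) and Kcnj13 (right) on the y axis against FPKM of the choroid plexus gene Ttr on the x axis, both on log scales, 1 point per library, by genotype (colour) and age (shape). The 3 libraries under 52 FPKM of Ttr are transgenic and hold the lowest values of both channel genes.

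Of 21 partner genes of potassium channels outside the Kcn symbols, 18 were tested. At week 28 Dpp10, Gabbr1, Gabbr2, Kctd12 and Dlg2 were lower in transgenic cerebellum and Cntn2 was higher. Those are 6 of the 18, 5 lower and 1 higher. Of all genes tested 10.7% were called at that age, 6.13% lower and 4.54% higher. At week 5 and at week 12, 3 of the 18 were called, all lower, against 7.67% and 1.36% of all genes called in either direction. Dpp10 joins Kv4 channels beside the KChIP subunits. It averaged 26.1 ± 4.80 FPKM in transgenic and 51.3 ± 1.75 FPKM in Cck-/- libraries (SD, n = 3 each), a log2 fold change of -0.96 ± 0.10 (adjusted p = 2.86e-05). It was also lower at week 12, by -0.58, and at week 5, by -0.47. Gabbr1 and Gabbr2 form the GABA-B receptor that opens GIRK channels, and Kctd12 is its auxiliary subunit. Gabbr1 averaged 97.9 ± 5.26 FPKM in transgenic and 157 ± 8.53 FPKM in Cck-/- libraries at week 28 (-0.67 ± 0.06, adjusted p = 9.25e-06). It was also lower at week 12, at -0.55 (adjusted p = 2.99e-04), and at week 5, at -0.32 (adjusted p = 0.00476). Its effect at week 28 exceeded that at week 5 by -0.35 (adjusted p = 0.0348), a call lost without any of 9 of the 12 libraries (up to 0.0963). Kctd12 was at -0.58 at week 28, -0.50 at week 12 and -0.39 at week 5, all 3 called. Dlg2, a scaffold of Kv1 clusters, was at -0.44, and Cntn2, an axonal adhesion protein beside Kv1 channels, at 0.32. Calls on Gabbr2 (-0.40) and Cntn2 were lost without transgenic week 28 replicate 1 (0.0585 and 0.114) or 2 (0.0704 and 0.132), and that on Cntn2 also without Cck-/- replicate 1 (0.0737) and without the libraries holding Xist and Ddx3y (0.109). The week 5 and week 12 calls on Dpp10 were lost without transgenic replicate 2 of that age (0.0720 and 0.0768), without Cck-/- week 5 replicate 3 (0.0602) or without Cck-/- week 12 replicate 1 (0.0590). That on Kctd12 at week 5 was lost without any of 4 of the 6 libraries (up to 0.0657).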

How the data were processed

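RNA-seq of whole cerebellum was deposited as 1 table of FPKM values for 22783 genes in 18 libraries. The authors made the FPKM from reads with TopHat2 2.0.11, Cufflinks 2.2.1 and the mm10 genome, per the submitters' processing notes, from TruSeq libraries, per the labels' protocols. FPKM holds no counts, so the absolute depth is unknown and no counting interval is given, and no strand setting is given in the sources used.

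The 13487 genes at 1 FPKM or more in at least 3 libraries were fitted as log2(FPKM + 1) with limma 3.58.1 in R 4.3.3, with 6 group means, an intensity trend and 12 residual degrees of freedom. The fold changes are on that scale and understate low genes. In all, 7 comparisons were made, with Benjamini-Hochberg adjustment over all genes tested in each. The script was tested on simulated data.

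Named members were those called (for age and interaction, up to 6 a direction by size, or the 5 with the smallest p), the 2 most abundant of each role, and known ataxia or firing genes. Kcnd2, Kcnip3, Kcns1, Kcns3, Kcne2 and Kcnj13, where named beyond that, were chosen after their values were seen. Alternatives covered pseudocount, filter, scaling, weights, groups fitted, replicate block and left-out libraries. The 2 sets of doubtful libraries were chosen after seeing the data. Members and lists were chosen with earlier results of these data known. Results of 4 members are not reported here, and figures leave them out, while counts over the members include them.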

Additional observations from a re-analysis of the deposited data

Results flagged for a closer look

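The genotype effect of 3 members differed between week 28 and week 5 by the test of the difference itself. The differences on the log2 scale were -0.558 for Kcnj10, -0.525 for Kcnip4 and -0.395 for Kcna6, each with the week 28 effect below the week 5 effect. Each call was lost without some single libraries, as given above. Without the libraries low in Ttr, 1 transgenic library is left at week 5. Without those holding Xist and Ddx3y, 1 is left at week 28. Neither fit can decide whether these differences hold, and their p-values are not given.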

How the results depend on the processing

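Of 1975 values of named genes under alternatives, 1731 kept their side of the threshold, 205 lost the call, 30 gained one and 9 changed sign. Sign changes under the SE of the main fit, with no call in either fit, count among the 1731 and not the 9. The week 28 count of 15 members was 12 to 16 under the other pseudocount, filters and scalings (the 12 of 38 members at a mean of 5 FPKM). It was 37 with library weights, when 43.3% of all genes were called, 5 with the compared groups fitted alone, when 2.5% were, and 8 to 22 with 1 library left out. The week 5 count of 6, Kcnh3 among them, was 18 with weights (23.1% of all genes). It was 3 without the libraries holding Xist and Ddx3y and 2 to 5 with 1 library left out. The week 12 count of 1 was 2 with a mean of 5 FPKM, quantile scaling, median-ratio scaling or the libraries low in Ttr left out, 3 with weights, 0 with the compared groups alone or without the libraries holding Xist and Ddx3y, and 0 to 1 with 1 library left out. The count of 3 for week 28 against week 5 was 27 with weights (32.1% of all genes), 0 with the compared groups alone, 7 without the libraries holding Xist and Ddx3y and 0 to 10 with 1 library left out. The count of 0 against week 12 was 23 with weights (17.4% of all genes) and 2 without the libraries low in Ttr. It was 0 to 3 with 1 library left out. Counts from fits that leave 1 library in a compared transgenic group are left out here. The age count of 25 in transgenic cerebellum was 11 without the libraries low in Ttr, 13 without those holding Xist and Ddx3y and 17 to 25 with 1 library left out. That of 18 in Cck-/- cerebellum was 32 with weights (57.1% of all genes) and 12 to 15 with 1 library left out. The share of all genes called moved with these counts. At week 28 it was 6.78% to 11.9% under the other pseudocount, filters and scalings. With 1 library left out it was 4.58% to 14.7% at week 28 and 3.4% to 5.95% at week 5. It was then 0.437% to 1.56% at week 12 and 0.89% to 7.84% for week 28 against week 5. Against week 12 it was 0% to 1.1%. With age it was 26.4% to 37.3% in transgenic and 26.3% to 31.3% in Cck-/- cerebellum. The cause of these changes was not tested.

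The 9 changes of sign so counted follow, and smaller ones are not listed. With the libraries holding Xist and Ddx3y left out, 1 transgenic library stands at week 28. With those low in Ttr left out, 1 stands at week 5. Without the libraries holding Xist and Ddx3y, the sign changed for Kcnc4 with age in transgenic cerebellum (-0.016, main value 0.21), Kcnt1 at week 5 (-0.049, main value 0.081) and Kcnh2 at week 28 (-0.11, main value 0.0046). Without those low in Ttr it changed at week 5 for Kcnt1 (-0.094), Kcna1 (-0.079, main value 0.055) and Kcnma1 (-0.14, main value 0.047). It changed for Kcnt1 at week 5 without transgenic replicate 1 (-0.049), and at week 28 for Kcnt1 without Cck-/- replicate 1 (-0.10, main value 0.069) and Kcnh1 without transgenic replicate 2 (0.056, main value -0.073). Over all left-out libraries, Kcnt1 ran from -0.049 to 0.17 at week 5 and from -0.10 to 0.17 at week 28, and Kcnh1 at week 28 from -0.17 to 0.056.

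Nothing in the labels says that same-numbered libraries were paired. Correlations of their deviations were 0.034, 0.149 and 0.0047 at week 5 and 0.435, -0.160 and 0.283 at week 12. At week 28 they were 0.200, -0.139 and -0.018. Libraries of different numbers were not set beside them, so whether same-numbered libraries share a batch was not tested. With the replicate block, 6 members were called at week 5, 2 at week 12, 15 at week 28, 3 for week 28 against week 5, 0 against week 12, 25 with age in transgenic and 18 in Cck-/- cerebellum. At week 5 the block lost Kcnab2 and gained Kcnab3, at week 12 it added Kcnn2, and with age in transgenic cerebellum it lost Kcnj3 and Kcnk9 and gained Kcnd2 and Kcnj2. The number of libraries, 3 a group, and FPKM without read counts limit the precision.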
